A study of Mus musculus with 7 samples.

Results

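The genes described here encode the machinery by which a nerve terminal releases neurotransmitter from synaptic vesicles. The 43 genes were chosen by name from that machinery, with earlier results of these data known. All 43 were found among the 21937 genes of the authors' deposited table. They were read in mouse embryonic stem cells of the A2lox line, 129/Ola background, in which doxycycline switches on NeuroD1, a bHLH factor that drives neuronal differentiation. There were 2 RNA libraries without doxycycline, called uninduced, and 2 after 48 h with the drug at 500 ng/ml. The cells had been grown on feeder fibroblasts and then without feeders on gelatin, and all 4 libraries were made from cells that carry the transgene. Since none received the drug without carrying it, doxycycline and NeuroD1 cannot be told apart. Whether the replicates were separate cultures is not given in the labels, and p-values may then cover technical spread only. NeuroD1 chromatin immunoprecipitations and input DNA of the series were not analysed here.

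A synaptic vesicle fuses when the SNARE proteins of the vesicle (synaptobrevin, encoded by the Vamp genes) and of the plasma membrane (Snap25 and syntaxin 1) zip together. Complexins hold and prime the partly zipped complex, synaptotagmins sense the calcium that triggers fusion, and Nsf with SNAP proteins takes the used complex apart. Active zone proteins such as Unc13a and Rims1 dock and prime vesicles at the release site, where Bsn and Pclo are scaffolds. Dynamin, amphiphysin and synaptojanin retrieve the membrane afterwards. In mature neurons these proteins act together at the terminal, whereas several of their relatives serve secretion in all cells.

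Each level is a mean of normalized read counts over a group, taken from the authors' deposited table, which holds no spread between libraries. The p-values of genes are those of DESeq as run by the authors, with Benjamini-Hochberg adjustment, and a gene was called at an adjusted p below 0.05. Neurod1 itself had means of 438 and 4371 by the authors' deposited table (adjusted p = 4.5e-274), with reads of transgene and endogenous gene not separated. Levels of different genes are compared only as normalized reads per kb of exon. Counts are per gene and do not separate transcripts. In a bulk sample, more cells of a type and more RNA per cell cannot be told apart.

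The promoters of the members are shown first, because NeuroD1 is known to bind E-box sequences and 23 members rose in the induced cells. RefSeq promoter windows (GRCm38.p6, 250 bases before to 50 after the start) were found for 34 of the 43 members by symbol, 42 windows in all. The E-box words searched on both strands were CAGATG, whose reverse complement is CATCTG, and CAGCTG, which reads the same on both strands. Either word was in a window of 15 of 34 members (44.1%) and of 3811 of 12396 genes with a p and a window (30.7%). Among members that rose, 11 of 19 held a word (57.9%), and among all genes that rose, 813 of 2466 did (33.0%). Of the 15 members with a window that did not rise, 4 held a word. Of the 19 members that rose, 8 held CAGCTG (42.1%), as did 2350 of all 12396 genes. CAGATG was in 3 of the 19 (15.8%) and in 15.3% of all genes. These are counts of letters in a short window and were not tested.

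Below are the 250 bases before the start of the 5 members that rose at least 3-fold and held an E-box word in that stretch, on the strand of the gene, 5′ to 3′, with the word in capitals. They are shown because 2 of them, Cplx2 and Pclo, had the largest rises of all members.
Cplx2 (chr13:54302306-54302555, plus strand): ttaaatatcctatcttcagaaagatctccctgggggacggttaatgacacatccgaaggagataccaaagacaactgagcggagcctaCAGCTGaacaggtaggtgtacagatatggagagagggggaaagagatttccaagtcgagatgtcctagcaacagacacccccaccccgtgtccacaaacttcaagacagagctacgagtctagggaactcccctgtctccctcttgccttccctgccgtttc
Pclo (chr5:14514668-14514917, plus strand): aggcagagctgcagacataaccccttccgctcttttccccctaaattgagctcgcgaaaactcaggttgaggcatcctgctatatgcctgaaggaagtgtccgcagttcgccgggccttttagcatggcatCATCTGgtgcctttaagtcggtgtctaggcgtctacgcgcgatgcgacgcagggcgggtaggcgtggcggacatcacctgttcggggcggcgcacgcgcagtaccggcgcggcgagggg
Rab3c (chr13:110280207-110280456, minus strand): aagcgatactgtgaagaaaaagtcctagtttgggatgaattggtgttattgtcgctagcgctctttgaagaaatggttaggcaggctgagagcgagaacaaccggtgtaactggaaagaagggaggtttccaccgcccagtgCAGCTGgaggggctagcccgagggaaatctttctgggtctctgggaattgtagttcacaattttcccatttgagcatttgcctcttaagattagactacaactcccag
Cplx1 (chr5:108550028-108550277, minus strand): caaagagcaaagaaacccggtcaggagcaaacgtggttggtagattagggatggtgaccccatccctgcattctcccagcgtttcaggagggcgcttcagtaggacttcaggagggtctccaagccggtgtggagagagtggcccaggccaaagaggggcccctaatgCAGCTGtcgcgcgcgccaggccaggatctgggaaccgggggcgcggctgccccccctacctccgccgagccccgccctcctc
Syt1, second of 2 starts (chr10:109009112-109009361, minus strand): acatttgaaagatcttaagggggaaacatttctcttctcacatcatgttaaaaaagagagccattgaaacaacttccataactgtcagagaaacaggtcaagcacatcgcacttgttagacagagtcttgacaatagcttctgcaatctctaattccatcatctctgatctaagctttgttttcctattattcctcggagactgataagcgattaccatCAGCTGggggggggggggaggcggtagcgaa
Counted with the start as 0, the words began at -162 in Cplx2, -119 in Pclo, -108 in Rab3c, -82 in Cplx1 and -31 in Syt1. In Pclo the word reads as the reverse complement of CAGATG and in the other 4 it is CAGCTG. Syp, Syt2 and Unc13a, which also rose at least 3-fold, had no E-box word in any of their windows, shown here for Syp. Cadps and Bsn held a word after the start, at 41 and 33. Snap25 and Doc2b rose at least 3-fold too, but no window was found for them, so they were not searched.
Syp (chrX:7638330-7638579, plus strand): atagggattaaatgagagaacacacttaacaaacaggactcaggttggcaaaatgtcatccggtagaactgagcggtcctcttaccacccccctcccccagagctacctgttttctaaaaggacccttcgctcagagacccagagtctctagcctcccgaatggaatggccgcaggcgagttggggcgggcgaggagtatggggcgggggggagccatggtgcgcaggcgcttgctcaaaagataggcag
The words CAGCACC and GGACAGC, parts of the RE1 site that the repressor REST binds, were searched on both strands as well. They were in windows of 3 and 1 of the 34 members (8.82% and 2.94%), against 8.98% and 9.12% of all genes.

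Of the 43 members, 23 rose and 3 fell after induction, and 17 did not pass the test. That is 53.5% rising, where 19.1% of all 18283 genes with a p rose, and 6.98% falling, where 16.4% of all genes fell. The members were chosen with earlier results of these data known, so these shares describe the list and were not tested. At least 2-fold rises were called for 13 members, against 7.48% of all genes. The median log2 change of the members, computed with a pseudocount of 1, was 0.66, and the median over all genes with a p was -0.01. Most members were already read in uninduced cells, where 39 had a mean of at least 10 by the authors' deposited table and 23 had at least 100, rising to 42 and 29 in induced cells. So were most genes: of all 18283 with a p, 14129 had at least 10 and 10688 at least 100 in uninduced cells. In induced cells these counts over all genes were 14266 and 10879. By starting level, 3 of the 4 members below 10 rose, where 8.91% of all genes at that level did. From 10 to 100 it was 8 of 16 members against 19.9% of genes, and from 100 to 1000 it was 11 of 21 members against 24.0%.

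**Figure D1:**
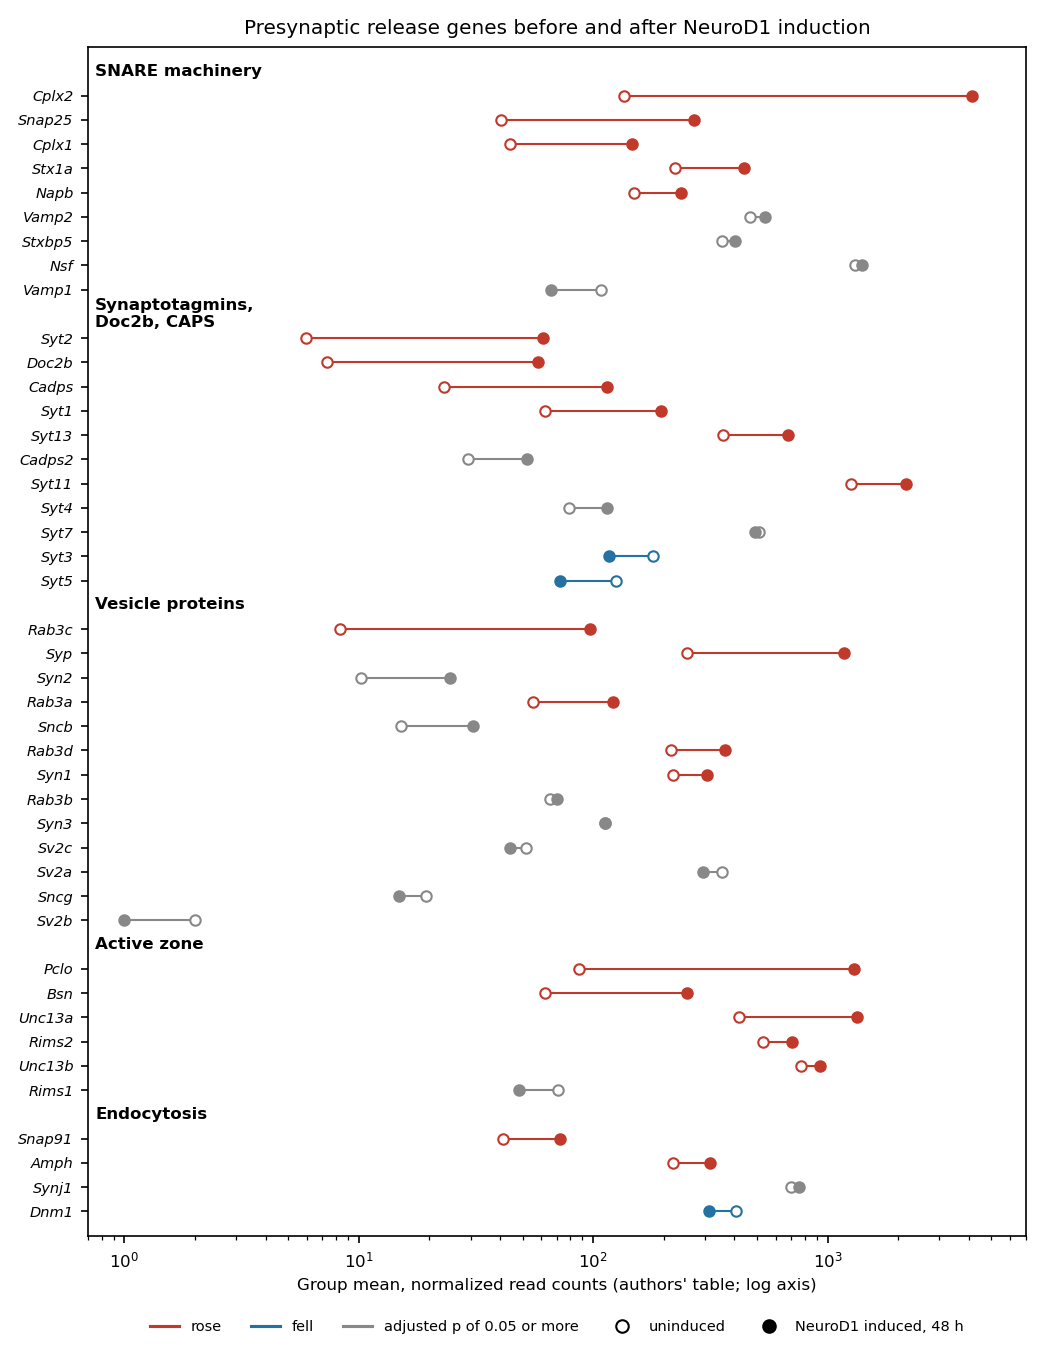
Group means of the 43 members in normalized read counts on a log axis, by role, with uninduced cells as open and induced cells as filled circles. Lines are red for the 23 genes that rose, blue for the 3 that fell and grey for the 17 that did not pass; Cplx2 spans 135 to 4136.

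**Figure D2:**
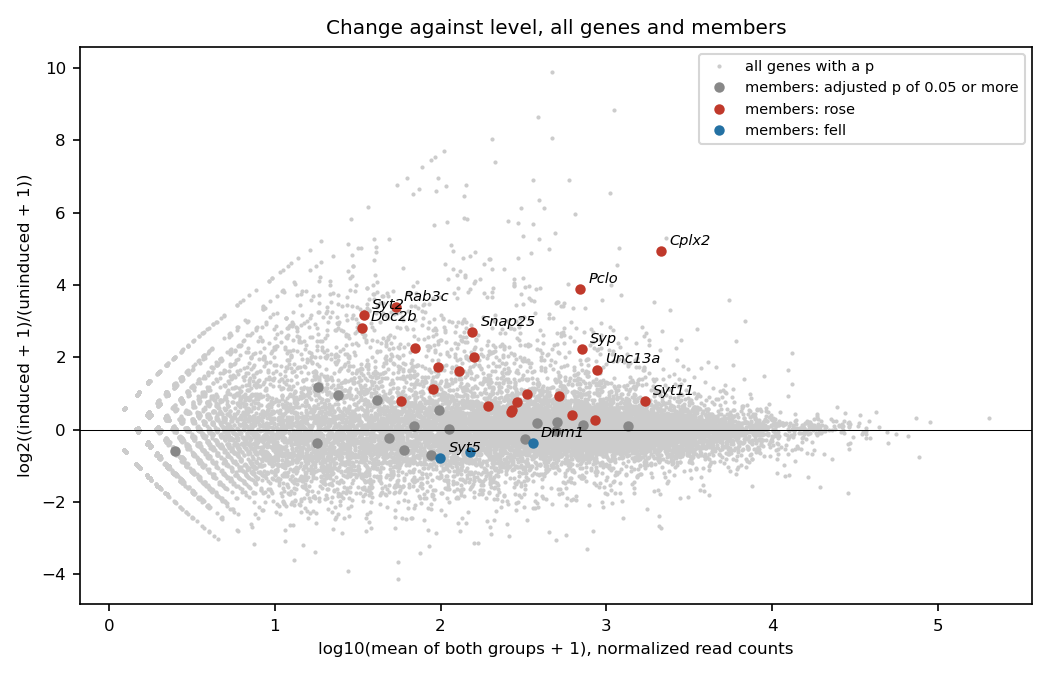
Log2 change with a pseudocount of 1 against the mean level of both groups (log10 of normalized read counts plus 1) for all 18283 genes with a p in light grey and the 43 members in colour. Cplx2 and Pclo, at 4.93 and 3.88, lie above all other members.

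The SNARE machinery held the largest rise of all members beside genes that did not pass. Of its 9 members 5 rose and 0 fell, and they had a median log2 change of 0.66. Cplx2, which encodes the complexin that clamps and primes the SNARE complex, went from 135 to 4136 normalized reads by the authors' deposited table, 30.7-fold, with an adjusted p listed as 0. Its log2 change of 4.93 ranked 52 among the 18283 genes. The relative Cplx1 went from 44.1 to 147 by the authors' deposited table, 3.33-fold (adjusted p = 9.0e-05). Per kb the 2 complexins together went from 47.5 to 907 normalized reads, and Cplx2 made up 57.6% of that sum before and 92.6% after.

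Snap25, the plasma membrane SNARE of nerve terminals, went from 40.5 to 269 by the authors' deposited table, 6.65-fold (adjusted p = 2.6e-18). Syntaxin 1A (Stx1a), its partner in the membrane, rose 1.98-fold from 223 to 441 by the authors' deposited table (adjusted p = 2.4e-10). Napb, the neuronal SNAP that recruits Nsf, had means of 149.6 and 237 by the authors' deposited table (adjusted p = 0.0013). These 3 genes were all read in uninduced cells as well.

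The vesicle SNAREs did not pass. Vamp2, the main synaptobrevin of the brain, had means of 466 and 542 by the authors' deposited table (adjusted p = 0.16). Vamp1, used at neuromuscular and spinal terminals, had 108 and 66.1 by the authors' deposited table (adjusted p = 0.18). Nsf, the ATPase that all cells need for membrane traffic, was the most abundant member of the role per kb in uninduced cells, with 346 normalized reads per kb, and its means of 1303 and 1398 by the authors' deposited table did not pass (adjusted p = 0.43). Tomosyn (Stxbp5), an inhibitor of SNARE assembly, had 356 and 401 by the authors' deposited table (adjusted p = 0.59). After induction Cplx2 held 44.0% of the reads per kb of all 9 genes.

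The synaptotagmins, Doc2b and the CAPS genes moved in both directions; most but not all of their proteins bind calcium. Of these 11 members 6 rose and 2 fell, at a median log2 change of 0.81. That is 54.5% and 18.2%, where 19.1% of all genes with a p rose and 16.4% fell, so the share of falls was near that of all genes. Syt1, the sensor of fast release in forebrain neurons, went from 62.1 to 194 by the authors' deposited table, 3.13-fold (adjusted p = 3.2e-06). Syt2, the fast sensor of hindbrain and spinal neurons, went from 5.93 to 61.3, 10.3-fold (adjusted p = 2.4e-10 by the authors' deposited table). Per kb Syt1 stayed above Syt2, at 40.3 against 8.47 normalized reads per kb in induced cells.

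The synaptotagmins with the highest levels were others. Syt11, a synaptotagmin that does not sense calcium, went from 1257 to 2153 by the authors' deposited table, 1.71-fold (adjusted p = 8.1e-05). Syt13, also without calcium binding, went from 359 to 679, 1.89-fold (adjusted p = 4.1e-04 by the authors' deposited table). Over the 8 synaptotagmin members the sum per kb went from 582 to 829 normalized reads, of which Syt11 held 41.9% before and 50.3% after. Syt1 held 2.21% of that sum before and 4.86% after.

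Syt3 and Syt5 fell. Syt3, a synaptotagmin with high calcium affinity, went from 180.5 to 117 normalized reads, to 0.648 times its uninduced mean by the authors' deposited table (adjusted p = 0.0062). Syt5, a synaptotagmin of dense-core and synaptic vesicles, went from 125 to 72.2, to 0.579 times (adjusted p = 0.0057 by the authors' deposited table). Their per-kb levels, 67.4 and 71.2 in uninduced cells, came down to 43.6 and 41.2, next to Syt1. Syt7, a slow sensor of asynchronous release, had means of 508 and 489.8 and did not pass (adjusted p = 0.83 by the authors' deposited table). Syt4, a synaptotagmin of secretory granules, had 78.5 and 115 (adjusted p = 0.087 by the authors' deposited table).

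Doc2b and the CAPS genes started low. Doc2b, a high-affinity sensor of spontaneous release, went from 7.33 to 57.9 by the authors' deposited table, 7.91-fold (adjusted p = 1.4e-08). Its relative Doc2a, which is not a member, was higher, at 145 and 206 normalized reads per kb against 1.68 and 13.3 for Doc2b. Doc2a rose 1.43-fold by the authors' deposited table (adjusted p = 4.0e-04). Cadps, which encodes the priming factor CAPS1 of dense-core vesicles, went from 23.1 to 115, 4.95-fold (adjusted p = 3.0e-05 by the authors' deposited table). Its relative Cadps2 had 29.2 and 52.0 and did not pass (adjusted p = 0.33 by the authors' deposited table). Per kb the CAPS pair was nearly even before induction, with Cadps at 46.9% of the sum, and Cadps made up 71.1% after it.

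Among the vesicle proteins 5 of 13 rose and 0 fell, the smallest share of rises of the 5 roles, with a median log2 change of 0.48. Syp, which encodes the abundant vesicle membrane protein synaptophysin, went from 250.3 to 1174 by the authors' deposited table, 4.69-fold (adjusted p = 9.4e-30). It held 23.5% of the reads per kb of the role before induction and 51.9% after. In GENCODE M21 (GRCm38) 33.8% of the exon bases of Syp lie under exons of an antisense gene, Gm14703. The strand setting of the authors' counting is not given in the sources used here, so reads of the 2 genes cannot be told apart. Exons of an antisense gene cover 14.5% of Syt4 in the same way, and exons of other genes cover less than 10% of any other member.

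The Rab3 GTPases, which sit on vesicles and bind Rims1, rose in 3 of 4 cases. Rab3c went from 8.33 to 96.9, 11.6-fold (adjusted p = 1.0e-11 by the authors' deposited table). Rab3a, the main form at synapses, went from 55.2 to 122, 2.21-fold (adjusted p = 0.0024 by the authors' deposited table). Rab3d, a form of exocrine and other secretory cells, went from 214 to 364, 1.70-fold (adjusted p = 4.4e-05 by the authors' deposited table). Rab3d was the highest per kb in both states, with 54.0 and 92.0 normalized reads per kb against 30.9 and 68.3 for Rab3a. Rab3b had means of 65.5 and 70.2 and did not pass (adjusted p = 1 by the authors' deposited table).

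Synapsins tether vesicles into the reserve pool, and of these Syn1 rose from 219.8 to 307, 1.40-fold (adjusted p = 0.0088 by the authors' deposited table). Syn2 had means of 10.2 and 24.5 (adjusted p = 0.23 by the authors' deposited table). Syn3 had 112 in both groups of the authors' deposited table (adjusted p = 1). Syn1 held 74.7% of the synapsin reads per kb before and 78.5% after.

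None of the 3 Sv2 genes and neither synuclein member passed. Sv2a, the vesicle glycoprotein to which the drug levetiracetam binds, had 354 and 293 by the authors' deposited table (adjusted p = 0.13). Sv2c had 51.6 and 44.0 by the authors' deposited table (adjusted p = 0.75). Sv2b was the lowest of all members, with 2.00 and 0.997 by the authors' deposited table (adjusted p = 0.96). The genes of the terminal proteins beta- and gamma-synuclein, Sncb and Sncg, had 15.2 and 30.7 (adjusted p = 0.11) and 19.3 and 14.9 (adjusted p = 0.81) by the authors' deposited table.

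The active zone had the largest share of rises, 5 of 6 genes with 0 falls and a median log2 change of 1.04. Pclo, the giant scaffold Piccolo, went from 87.0 to 1298 by the authors' deposited table, 14.9-fold (adjusted p = 1.2e-173), and ranked 123 among all 18283 genes by log2 change. Bassoon (Bsn), its partner at the release site, went from 62.3 to 252, 4.05-fold (adjusted p = 7.0e-20 by the authors' deposited table). Per kb the 2 scaffolds were level before induction, at 3.91 for Bsn and 3.94 for Pclo, and Pclo held 78.8% of their sum after it.

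Unc13a, the priming factor Munc13-1, went from 419 to 1329, 3.17-fold (adjusted p = 1.5e-51 by the authors' deposited table). Its relative Unc13b rose 1.20-fold from 772 to 928 (adjusted p = 0.036 by the authors' deposited table), a call that was lost at an adjusted p of 0.01. Unc13b was the higher of the 2 per kb in uninduced cells, at 43.9 against 40.6, and Unc13a in induced cells, at 129 against 52.8 normalized reads per kb. Rims2, which links vesicles to calcium channels, rose 1.33-fold from 531 to 707 (adjusted p = 0.0017 by the authors' deposited table). Rims1 had 71.0 and 48.2 and did not pass (adjusted p = 0.17 by the authors' deposited table).

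**Figure D3:**
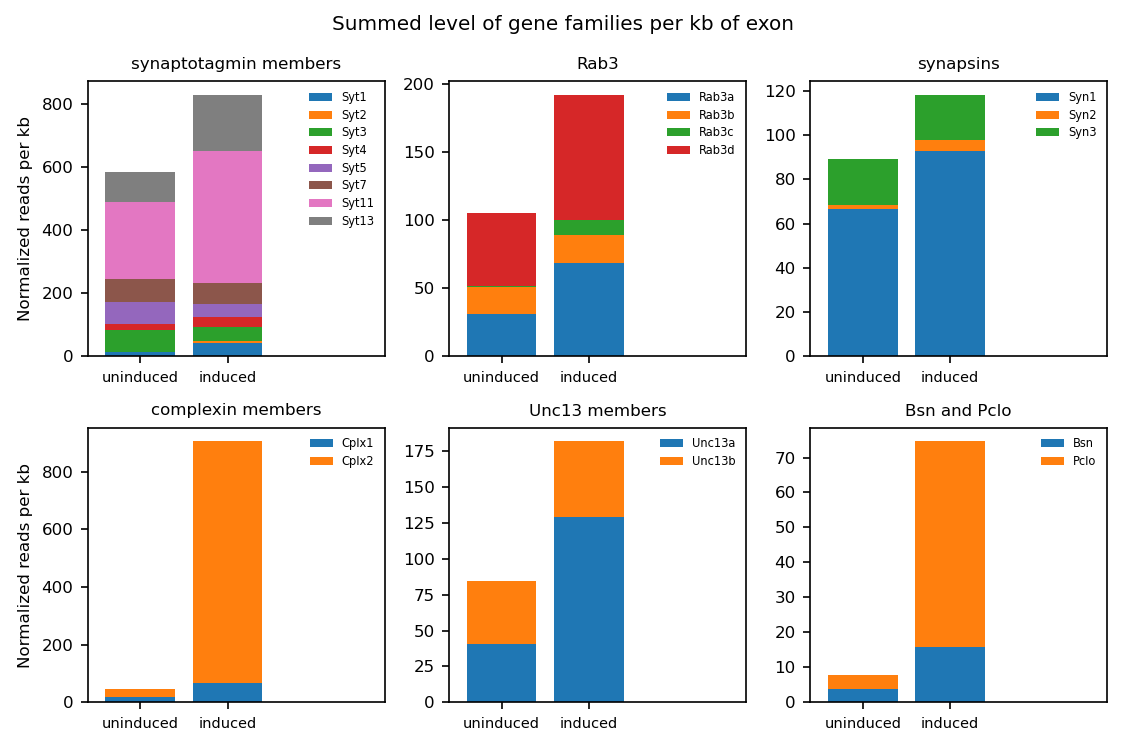
Summed level of 6 gene families in normalized reads per kb of exon, uninduced and induced, with each gene as a coloured segment of the bar; axes differ between panels. The complexin sum went from 47.5 to 907 and that of the synaptotagmin members from 582 to 829.

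The smallest median log2 change of the 5 roles, 0.33, was that of vesicle retrieval genes, with 2 rises and 1 fall among 4 and none of them 2-fold. That is 50.0% and 25.0%, where 19.1% of all genes with a p rose and 16.4% fell. Amphiphysin (Amph), which brings dynamin to the neck of a budding vesicle, rose 1.45-fold from 219 to 316 (adjusted p = 0.004 by the authors' deposited table). Snap91, the clathrin adaptor AP180, rose 1.74-fold from 41.2 to 71.9 (adjusted p = 0.038 by the authors' deposited table). Dynamin 1 (Dnm1), the GTPase that cuts the vesicle neck in neurons, fell from 406 to 311, to 0.765 times (adjusted p = 0.017 by the authors' deposited table). The calls of Snap91 and Dnm1 were lost at an adjusted p of 0.01. Synj1, the lipid phosphatase that uncoats vesicles, had 695 and 757 (adjusted p = 0.47 by the authors' deposited table).

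**Figure D4:**
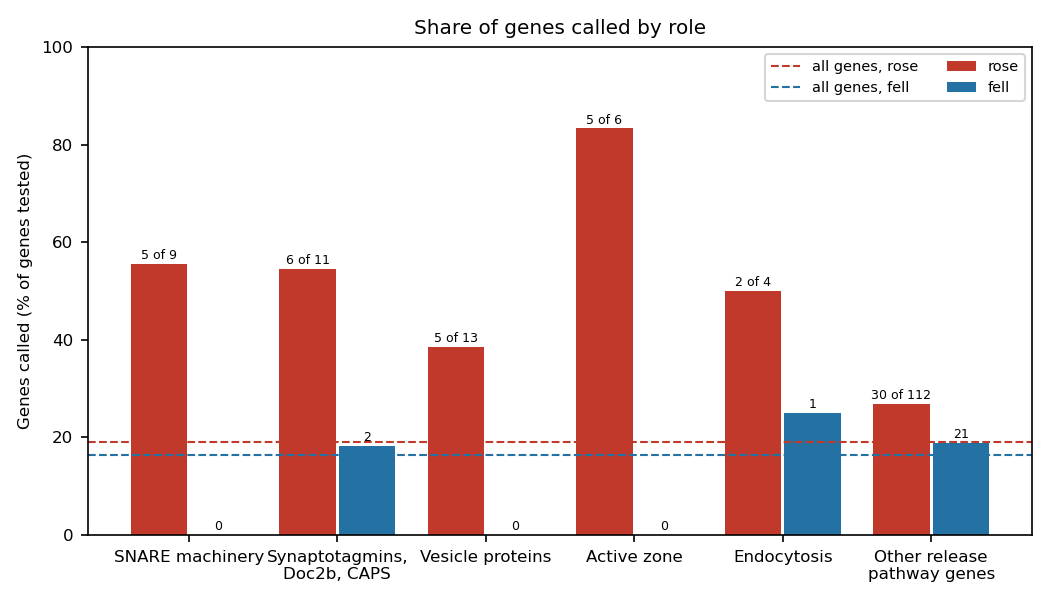
Genes called at an adjusted p below 0.05 as a percentage of the genes tested, for each role and for 112 other genes of the release pathway, with rises in red and falls in blue. Dashed lines mark the shares over all genes, 19.1% rising and 16.4% falling; the active zone, with 5 of 6, is the highest bar.

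The other genes of the pathway, many of them used by all cells, rose and fell in more even numbers. Of 113 such genes 112 had a p, and 30 rose (26.8%) and 21 fell (18.8%), at a median log2 change of 0.08. Over all genes with a p the shares were 19.1% and 16.4%. This list too was chosen with earlier results known, and its difference from the members was not tested. Partners of the SNAREs rose in 11 of 26 cases (42.3%) and fell in 2 (7.69%). Stxbp4 and Stxbp6, which encode syntaxin-binding proteins, rose 1.98-fold and 2.59-fold by the authors' deposited table (adjusted p = 1.5e-17 and 6.8e-15).

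Among 24 other genes of the synaptotagmin, synaptotagmin-like, Doc2, rabphilin, ferlin and extended synaptotagmin families, not all of which bind calcium, 3 rose and 5 fell. That is 12.5% and 20.8%, where 19.1% of all genes rose and 16.4% fell. Those with the smallest p were Esyt3 and Esyt2, tethers between endoplasmic reticulum and plasma membrane, and the membrane repair gene Myof. They fell to 0.389, 0.725 and 0.483 times the uninduced level by the authors' deposited table (adjusted p = 6.6e-22, 6.0e-08 and 8.2e-20). Of 17 other vesicle proteins 5 rose and 5 fell (29.4% each). The synaptogyrin genes Syngr1 and Syngr2 fell to 0.395 and 0.553 times by the authors' deposited table (adjusted p = 4.3e-31 and 5.9e-15). Synpr, a relative of synaptophysin, went from 4.86 to 58.3, 12.0-fold (adjusted p = 2.0e-10 by the authors' deposited table).

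Other scaffold genes of the active zone rose in 5 of 22 cases (22.7%) and fell in 3 (13.6%), near the 19.1% and 16.4% of all genes. Apba2, an adaptor of the presynaptic membrane, rose 8.07-fold from 62.6 to 505 by the authors' deposited table (adjusted p = 1.2e-34), and the scaffold kinase gene Cask 1.83-fold (adjusted p = 2.2e-11). Rab3gap2, part of an enzyme that inactivates Rab3, fell to 0.834 times by the authors' deposited table (adjusted p = 0.0095). Other genes of endocytosis rose in 6 of 23 cases and fell in 6 (26.1% each). The clathrin light chain gene Cltb, the adaptor gene Ston2 and the scaffold gene Itsn2 fell to 0.410, 0.664 and 0.679 times by the authors' deposited table (adjusted p = 3.8e-15, 2.3e-10 and 5.9e-09).

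Set against related genes, Snap25 and Stx1a gained in ratio but stayed the lower of each pair. Snap25 stood at 0.0575 times the per-kb level of Snap23, the form of non-neuronal cells, before induction and at 0.305 times after. Snap23 itself rose 1.25-fold by the authors' deposited table (adjusted p = 0.0037). Stx1a went from 0.196 to 0.574 times the per-kb level of Stx3, an epithelial and retinal syntaxin, which fell to 0.674 times by the authors' deposited table (adjusted p = 3.7e-10).

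Syp became the higher of its pair. Its ratio to Sypl, the synaptophysin-like gene of other tissues, went from 0.274 to 1.94, as Syp rose and Sypl fell to 0.664 times by the authors' deposited table (adjusted p = 7.0e-10). Vamp2 kept close to its ratio to Vamp3, the synaptobrevin of other cells, at 0.316 and 0.330. Its ratio to Vamp8, an endosomal form, was 2.45 before and 3.60 after. Vamp3 and Vamp8 did not pass (adjusted p = 0.36 and 0.23 by the authors' deposited table).

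In the other direction, Dnm1 went from 0.303 to 0.204 times the per-kb level of Dnm2, the dynamin of all cells, which did not pass (adjusted p = 0.13 by the authors' deposited table). Amph went from 0.720 to 0.465 times that of Bin1, the amphiphysin of muscle and other tissues. Bin1 rose 2.24-fold by the authors' deposited table (adjusted p = 3.3e-04), more than Amph in fold, with the difference not tested. Napb, Snap91 and Synj1 stood at 0.0644, 0.0222 and 3.01 times the per-kb levels of Napa, Picalm and Synj2 before induction and at 0.0914, 0.0334 and 5.23 times after. Synj2 fell to 0.628 times by the authors' deposited table (adjusted p = 9.5e-04), while Synj1 itself did not pass.

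**Figure D5:**
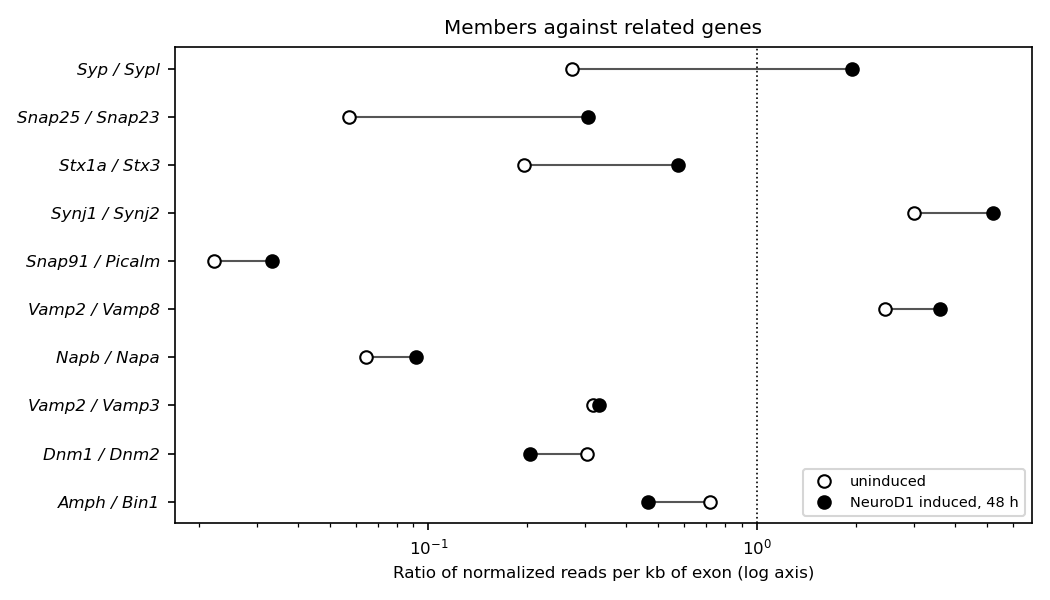
Ratio of the per-kb level of a member to that of a related gene, on a log axis, in uninduced (open) and induced (filled) cells; the dotted line marks equal levels. Syp over Sypl crosses from 0.274 to 1.94, while Snap25 over Snap23 moves from 0.0575 to 0.305.

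Markers of other cells were read beside these genes. For comparison, 19.1% of all genes with a p rose and 16.4% fell. Of 10 neuron markers 9 rose and 0 fell, and their summed means went from 6359.8 to 22941 normalized reads by the authors' deposited table. Tubb3 (845 and 10149) and Stmn2 (3711 and 4996) were the largest parts of that sum in both groups. The sums of markers add means not divided by exon length, so they follow the highest genes. Of 11 neuroendocrine markers 7 had a p, 6 rose and 0 fell, with a summed level of 344 and 2095 by the authors' deposited table. Chgb, the highest of them in induced cells, had 10.9 and 830.4. Ins1, Ins2, Gcg and Iapp, which encode islet hormones, were listed at 0 in both groups. Sst, another hormone gene of that list, went from 0.464 to 35.6 (adjusted p = 1.3e-09 by the authors' deposited table). Of 15 fibroblast markers, taken to stand for feeder cells, 6 rose (Col3a1, Pdgfra, Pdgfrb, Prrx1, Acta2 and Lox) and 2 fell (Thy1 and Dcn), or 40.0% and 13.3%. The other 7, Col1a1, Col1a2 and Fbn1 among them, did not pass. The sums over all 15 were 4092 and 6907 by the authors' deposited table, of which Acta2 made up 904 and 2702. Fap was listed at 0 in uninduced cells. The part of neuroendocrine or fibroblast cells in the changes of the members was not tested.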

How the data were processed

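RNA of 4 libraries was sequenced from total RNA with a poly(A) library type, per the labels. Per the submitters' processing notes the tools listed for RNA were DESeq, HTSeq 0.5.4p1, SAMtools 0.1.19, TopHat2 2.0.8 and FastQC 2.6.14 with a build named mm9, in no stated role or order. The values used are the authors' group means of normalized read counts, a signal that is never negative, in the deposited table. It also holds the authors' fold change as a ratio, the authors' log2 fold change and the authors' p-values with their adjustment, deposited for 18283 of 21937 genes. Groups were read from the column headers and the sample titles. A second deposited table has 4 library columns whose names match no label. Those 4 columns were left out of all steps, so no spread, SD or depth per library is given and no model was fitted here.

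Members were counted by the authors' adjusted p at 0.05. Log2 changes were computed with a pseudocount of 1, which understates low genes. Per-kb levels divide the means by the summed exon length of GENCODE M21 basic (GRCm38), a build other than mm9, found for all 43 members. RefSeq promoters are of GRCm38.p6 and no coordinates were converted. The members and lists were chosen with earlier results of these data known. The named genes are all members, set relatives and, per partner list, the 3 genes lowest in adjusted p, of which a few are not reported here, and the relatives Stx3, Napa, Picalm, Synj2 and Bin1 and the families summed per kb were chosen after values were seen. Map2 was matched as Mtap2. The adjustment and the motif search were tested on simulated data. Python 3.11.15, pandas 2.3.3, numpy 2.4.6 and matplotlib 3.10.9 were used.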

Additional observations from a re-analysis of the deposited data

How the results depend on the processing

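Call counts were recomputed at an adjusted p of 0.01, with at least a 2-fold change, and with the adjustment redone over genes with a mean of at least 10, which gave the same 23 rises and 3 falls among members. At 0.01, 21 members rose and 2 fell (15.6% and 12.9% of all genes). Retrieval genes then had 1 rise and 0 falls. With a 2-fold minimum 13 members rose and 0 fell, where 7.48% of all genes rose. The share of all genes that fell under this rule is not given here, so the counts of falls stand without a comparison. Rises were for 3 SNARE, 4 synaptotagmin, Doc2b or CAPS, 3 vesicle, 3 active zone and 0 retrieval genes, with 0 falls in the last and in the synaptotagmin group. The other pathway genes then had 10 rises and 4 falls. The members' median log2 change was 0.65 with a pseudocount of 5, 0.61 with equal upper quartiles (a shift of -0.0459 for every gene) and 0.71 over members with a mean of at least 10. It was 0.66 with a pseudocount of 0.5 and with equal totals. A common pseudocount cannot change which mean is higher, so no single-gene direction was tested that way. The word CAGATG alone was in 5 members' promoters and CAGCTG alone in 10. The RE1 search was chosen after seeing the data. No paired analysis was possible because the library columns carry no replicate number or group. For the same reason limma on the libraries and fits without single libraries were not run, so how far a call rests on 1 library is not known here.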
